A study of Mus musculus with 12 samples.

Results

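The pore-forming subunits of voltage-gated calcium channels were followed through ribosome footprints, RNA and immunoprecipitated polysomes of the adult mouse brain. The members were the 8 genes Cacna1a, Cacna1b, Cacna1c, Cacna1d, Cacna1e, Cacna1g, Cacna1h and Cacna1i, taken by name from a table of 20504 genes that holds reads counted on coding sequence (CDS) in 12 libraries. Cacna1e stood apart from the other members in translation efficiency (TE, footprints divided by RNA, both counted on CDS). Its TE was above that of about 99.0% of genes or more in each of 4 mice. The T-type subunit Cacna1g lay within the lowest 2.98% of genes. The ranking of the 8 members by TE was identical in the 4 mice. Cacna1e was also the member lowest in polysomes pulled down from Camk2a-expressing neurons, relative to total tissue. After inhibition of mTOR it was the only member whose TE passed the test. Its TE was higher, and this call was lost under some settings.

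A voltage-gated calcium channel opens when the membrane depolarizes and lets calcium into the cell, and the Cacna1 gene decides which type of channel it is. Its product is a single long chain of repeated domains that forms the pore and senses voltage. Cacna1c and Cacna1d encode the L-type channels Cav1.2 and Cav1.3, which sit mainly on cell bodies and dendrites and couple activity to gene expression. Cacna1a and Cacna1b encode the P/Q-type and N-type channels Cav2.1 and Cav2.2, which admit the calcium that triggers transmitter release at nerve terminals. Cacna1e encodes the R-type channel Cav2.3, and Cacna1g, Cacna1h and Cacna1i encode the T-type channels Cav3.1, Cav3.2 and Cav3.3, which open near resting potential and support burst firing. Auxiliary β subunits (Cacnb genes) and α2δ subunits (Cacna2d genes) bring the L-, P/Q-, N- and R-type pores to the membrane and tune their opening.

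All 6 animals were adult Camk2a-RiboTag mice, so control animals carry the same alleles as treated animals. In these mice Cre recombinase, driven by the Camk2a promoter in principal excitatory neurons of the forebrain, switches the last exon of the ribosomal protein gene Rpl22 to a copy with a hemagglutinin (HA) tag. Mice C and D received a single oral dose of 100 mg/kg AZD-8055, an ATP-competitive inhibitor of the kinase mTOR, and were killed 1 h later. Mice A and B carry the label untreated, and the study's methods state that the controls received vehicle by gavage, so they are called vehicle here. Lysate of each of these 4 brains (right frontal lobe according to the methods) gave a ribosome footprint library and a poly(A) RNA library of the whole tissue. Mice E and F, labelled untreated, each gave a poly(A) RNA library of total lysate (input) and one of polysomes pulled down through the HA tag (IP). Every group therefore had 2 mice. The footprints and the RNA of mice A to D were not selected for a cell type, and in such bulk libraries fewer cells of a type and less RNA per cell cannot be told apart.

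Counts on CDS summed to 9259938 and 4551357 in the vehicle footprint libraries, 3503873 and 4759336 after AZD-8055, and 9309496 to 15585831 in the 8 RNA libraries. Markers of excitatory neurons summed to 2823 and 2703 CPM (counts per 1000000 CDS counts of the library) in input and 6163 and 6036 CPM in IP. Over the same 2 pairs, markers of inhibitory neurons went from 1075 and 1089 CPM to 233 and 162 CPM, and astrocyte markers from 2372 and 2306 CPM to 196 and 229 CPM. As a check of the treatment, all 16 genes of a list of translation factors and ribosomal proteins, whose translation depends on mTOR, had lower TE after AZD-8055, with a median log2 change of −1.20.

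The genes lie on 8 different chromosomes. In assembly GRCm38.p6 (mm10), Cacna1e spans chr1:154390806-154884785 and Cacna1g spans chr11:94408391-94474400. Cacna1c spans chr6:118587240-119197384, the longest locus of the 8 at 610145 bp, and Cacna1h spans chr17:25374285-25436334, the shortest at 62050 bp. Cacna1a lies on chromosome 8, Cacna1b on 2, Cacna1d on 14 and Cacna1i on 15. The related genes Cacna1f and Cacna1s, known from retina and skeletal muscle, stayed under the mean of 37 counts per library that was required for testing, whereas all 8 members passed it.

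Each member was well covered, and the largest differences were between kinds of library. Coding lengths were not at hand, so levels are compared only within a gene. Cacna1e had 69.7 and 69.1 CPM in the RNA of mice A and B but 345 and 331 CPM in their footprints. Its footprint libraries were thus far above its RNA libraries in the same animals. Cacna1g showed the opposite arrangement, with 177 and 209 CPM in RNA and 34.9 and 39.8 CPM in footprints. In the RNA of mice A and B, counts on all exons were 3.93 and 4.19 times the CDS counts for Cacna1e. This ratio was 1.14 and 1.12 for Cacna1g, and 1.53 in each mouse for the median gene. A small share of the Cacna1e RNA reads thus entered its TE, and the effect of this on the TE was not tested. Cacna1a, the P/Q-type pore, had 274 and 288 CPM in RNA and 138 and 149 CPM in footprints of these mice. Summed over the 8 members, RNA of mice A to D lay between 1058 and 1140 CPM with vehicle and AZD-8055 mice overlapping. The summed footprints were 845 and 860 CPM in vehicle mice and 973 and 993 CPM in AZD-8055 mice, which did not overlap. In mice E and F the sum was 1462 and 1265 CPM in input and 546 and 477 CPM in IP.

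**Figure D1:**
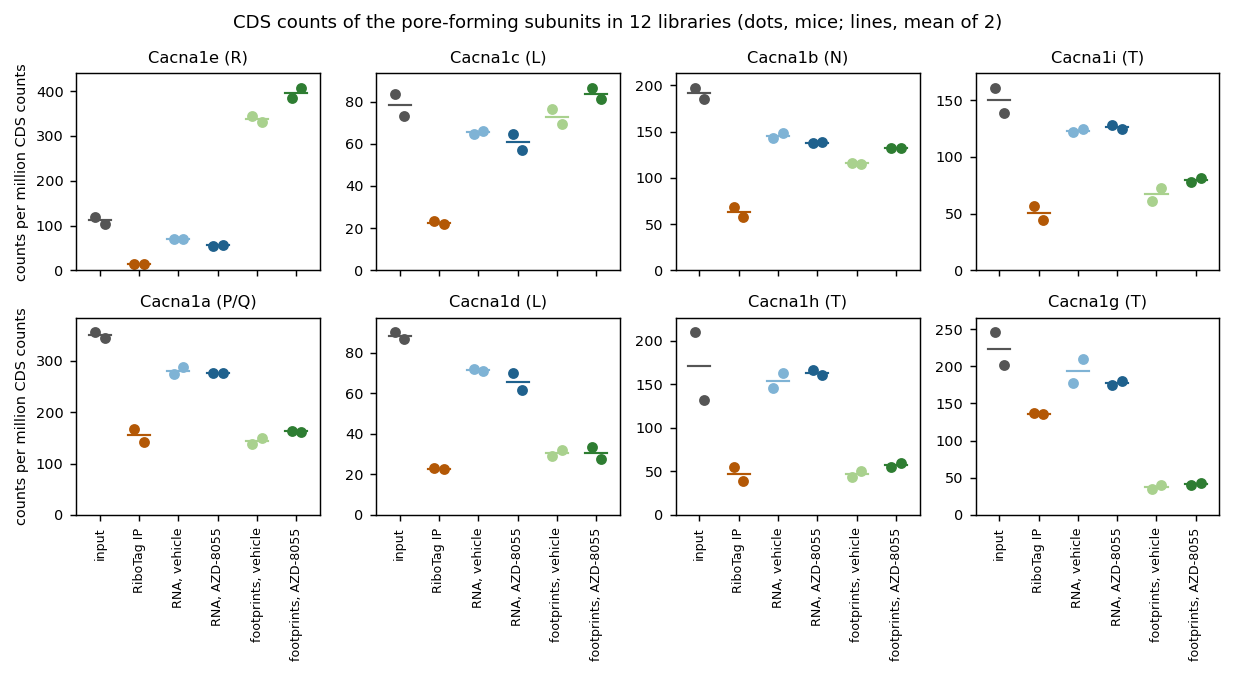
CPM on CDS in each of the 12 libraries for the 8 subunits, 1 panel per gene with its channel type in brackets, with dots for mice and lines for the mean of 2 mice; each vertical axis starts at 0 and has its own range. For Cacna1e the footprint libraries (331 to 407 CPM) lie far above all RNA libraries, and for Cacna1g the footprint libraries (34.9 to 42.2 CPM) lie below all others.

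The 8 subunits did not share a translation efficiency. On the log2 scale, where a value near 0 is the middle of all genes, Cacna1e had TEs of 2.43, 2.33, 2.91 and 2.86 in mice A to D. These values were above those of 99.0% to 99.7% of genes in the respective mouse. No other member came near it, and the next, the L-type gene Cacna1c, had 0.37, 0.13, 0.51 and 0.54 in mice A to D. The N-type gene Cacna1b followed at −0.17, −0.30, 0.04 and −0.03, close to the median gene.

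Cacna1b and the remaining 5 members all lay below the median gene of each of the 4 mice. The T-type gene Cacna1i had −0.85, −0.70, −0.63 and −0.59, and the P/Q-type gene Cacna1a had −0.86, −0.88, −0.68 and −0.74. The ranges of Cacna1i and Cacna1a overlapped, although Cacna1i was the higher in 4 of 4 mice. The second L-type gene, Cacna1d, ranged from −1.17 to −0.98 and Cacna1h from −1.63 to −1.41. Cacna1g was the lowest at −2.22, −2.33, −2.05 and −2.06, in the lowest 1.99% to 2.98% of genes. Apart from Cacna1i and Cacna1a, no pair of neighbours in this order overlapped over the 4 mice. Channel type did not order the genes fully, since the L-type pair spanned the median gene while all 3 T-type genes were below it. The distance from Cacna1g to Cacna1e was 4.65 and 4.66 on the log2 scale in mice A and B and 4.96 and 4.92 in mice C and D, or 25.1- to 31.1-fold.

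**Figure D2:**
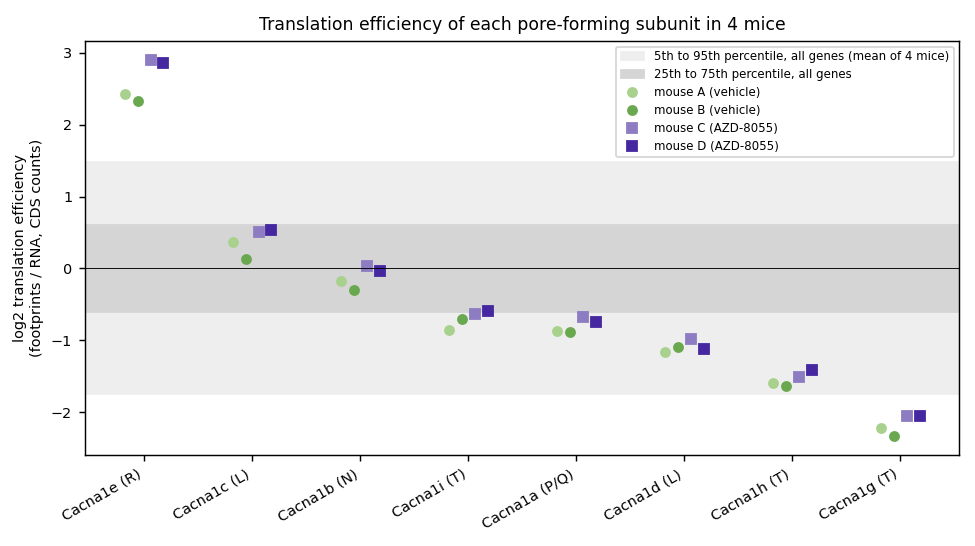
Log2 translation efficiency (vertical axis, CDS footprints over RNA after division by size factors) of the 8 subunits in mice A and B (circles, vehicle) and C and D (squares, AZD-8055), ordered from highest to lowest, over grey bands for the middle of all genes. Cacna1e lies above the band of the 5th to 95th percentile in all 4 mice and Cacna1g lies below it.

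In vehicle mice, footprints against RNA were tested with edgeR across 11797 genes. All 8 members differed from equal representation, 2 higher and 6 lower, where 73.8% of all genes were called, 36.5% higher and 37.3% lower. The share of members called is therefore not particular to them, and the sizes carry the description. Cacna1e was 5.38-fold higher in footprints (log2 2.43, SE 0.076, adjusted p = 5.4e-13). Cacna1g was 4.75-fold lower (log2 −2.25, SE 0.095, adjusted p = 1.0e-11) and Cacna1h 3.00-fold lower (log2 −1.58, SE 0.087). Cacna1d was 2.13-fold lower, Cacna1a 1.78-fold lower and Cacna1i 1.68-fold lower. Cacna1c was 1.24-fold higher (adjusted p = 0.0080) and Cacna1b 1.14-fold lower (adjusted p = 0.021), and these calls were lost under some settings. The call of Cacna1b was lost without mouse A (adjusted p = 0.092), without mouse B (0.22) and with DESeq2 (0.095), and that of Cacna1c without mouse A (0.24) and with no count filter (0.057). The median of the 8 was −0.79 against −0.01 over all genes tested.

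The auxiliary subunits were as spread as the pores. Of the 4 β subunit genes, Cacnb4 was higher in footprints (log2 1.62, SE 0.087) and Cacnb3 (−1.78), Cacnb1 (−0.64) and Cacnb2 (−0.54) were lower. Among the α2δ genes, Cacna2d1, whose product is the binding site of gabapentin, was higher at 2.53 (SE 0.086, adjusted p = 9.6e-13), a value close to that of Cacna1e. Cacna2d2 (0.20, adjusted p = 0.064) and Cacna2d3 (0.01, adjusted p = 0.91) did not pass the test, although Cacna2d2 passed it with the mouse as a block (0.22, adjusted p = 0.0052), and Cacna2d4 had too few counts. Of 6 relatives with the same plan of repeated domains, namely sodium channel genes and the leak channel gene Nalcn, 4 were higher and 0 lower, against the shares of 36.5% and 37.3% over all genes. With the mouse as a block 5 were higher. The highest was Scn2a1 at 0.97, well under Cacna1e. Of 21 tested genes for partners of the channels at the terminal and membrane, 12 were higher and 6 lower, and 13 were higher with the block. The lowest was the adaptor gene Stac2 (−2.65).

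After 1 h of AZD-8055, TE passed the test in 1 member, Cacna1e, and its direction was up. The background was 0.865% of 11797 genes, with 9 genes higher (0.0763%) and 93 lower. The TE of Cacna1e was 2.43 and 2.33 in vehicle mice and 2.91 and 2.86 in AZD-8055 mice, and the groups did not overlap. The edgeR estimate of the change was 0.50 on the log2 scale (SE 0.11, 1.42-fold, adjusted p = 0.033). With DESeq2 it was 0.51 (adjusted p = 0.0060) and with the mouse as a block 0.50 (adjusted p = 0.0040). The call was lost when any of mice A, B, C or D was left out (adjusted p = 0.21, 0.34, 0.26 and 0.22), with changes of 0.48 to 0.53. It was also lost with no count filter (0.46, adjusted p = 0.098). Whether the change of Cacna1e differed from that of the other members was not tested.

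The change of Cacna1e was the sum of a small difference in each kind of library, of which neither passed its own test. Its RNA was 69.7 and 69.1 CPM in vehicle mice and 54.5 and 57.6 CPM after AZD-8055, which do not overlap (log2 −0.30, SE 0.083, adjusted p = 0.25). With exon counts, which include the untranslated parts of the mRNA, the RNA difference of Cacna1e was −0.13. Its footprints were 345 and 331 CPM in vehicle mice and 385 and 407 CPM after AZD-8055 (log2 0.22, SE 0.071, adjusted p = 0.25).

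The estimated TE change was above 0 in all 8 members, from 0.08 (Cacna1d) to 0.50, with a median of 0.21. Across all genes tested it was above 0 in 48.1% and the median was −0.01. In 7 of the 8 members both AZD-8055 mice had a higher TE than both vehicle mice, which held for 16.0% of genes. Cacna1d was the exception. The members share the same libraries and their scaling, so they do not count as 8 separate observations. Values for the members that did not pass were 0.26 (SE 0.14) for Cacna1c, 0.24 (SE 0.14) for Cacna1g, 0.24 (SE 0.098) for Cacna1b, 0.19 (SE 0.12) for Cacna1i, 0.18 (SE 0.13) for Cacna1h and 0.17 (SE 0.10) for Cacna1a.

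For RNA alone, 0 of 8 members were called by edgeR, where 0.148% of 12182 genes were. For footprints alone the count was also 0 of 8, where 1.03% of 10695 genes were called. DESeq2 called 0 members in either comparison, where it called 0.230% of genes in RNA and 1.15% in footprints. At an unadjusted p under 0.05, edgeR had 1 member in RNA (Cacna1e, against 8.24% of genes) and 4 in footprints (Cacna1b, Cacna1e, Cacna1h and Cacna1i, against 12.8% of genes). DESeq2 had Cacna1e alone in each, against 3.16% and 5.39% of genes. The RNA estimates ran from −0.30 to 0.09 and the footprint estimates from −0.01 (Cacna1d) to 0.29 (Cacna1h). Marker sums also differed between these mice. Excitatory neuron markers summed to 2570 and 2421 CPM in vehicle RNA and 2843 and 2657 CPM after AZD-8055, without overlap and with 0 of 7 called. In footprints they summed to 1894 and 1964 CPM in vehicle mice and 2181 and 2233 CPM after AZD-8055, again without overlap and with 0 of 7 called. The ratio of group means, AZD-8055 over vehicle, was 1.14 for these footprint sums and 1.15 for those of the 8 members. In RNA this ratio was 1.10 for the excitatory markers and 0.96 for the 8 members. Striatal markers summed to 996 and 1009 CPM in vehicle RNA and 1174 and 1245 CPM after AZD-8055, with 1 of 6 called higher. The 5 thalamic markers summed to 91.0 and 105 CPM and to 77.5 and 80.1 CPM, with 0 called. The part of these differences in the values of the channel genes was not tested.

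**Figure D3:**
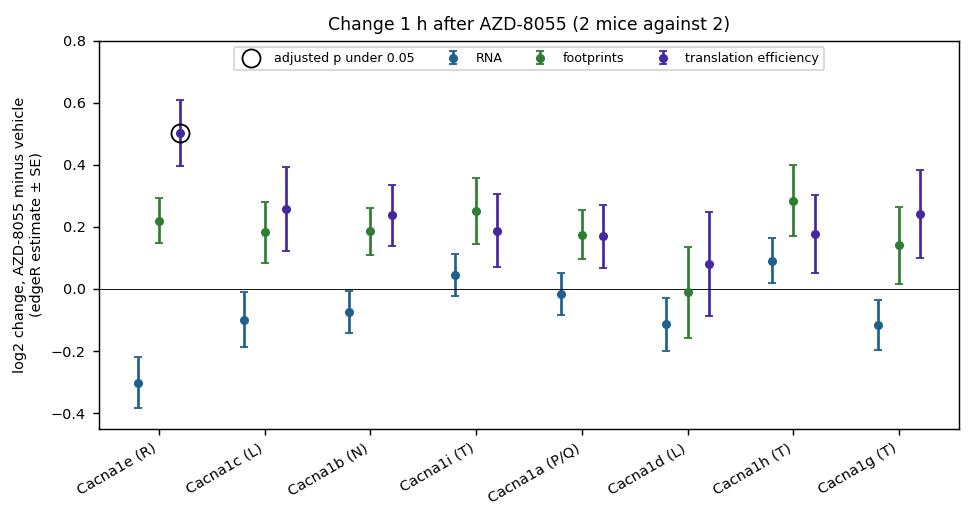
Estimated log2 change after AZD-8055 (vertical axis, edgeR estimate ± SE, 2 mice against 2) in RNA, footprints and TE for the 8 subunits. The TE estimates all lie above 0, from 0.08 to 0.50, and the circle marks the only one with an adjusted p under 0.05, that of Cacna1e.

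Over all genes tested by edgeR, the TE change after AZD-8055 passed in 0.865%, and in 0.0763% it was called higher. Among the auxiliary genes, it passed in 0 of 4 β and 0 of 3 tested α2δ genes. The largest estimate was 0.42 for Cacnb2 (adjusted p = 0.56), and Cacna2d3 had the lowest at −0.18 (adjusted p = 0.80). The channel relatives gave 0 of 6, between −0.13 (Scn3a) and 0.23 (Scn8a). Of the 21 tested partner genes, 1 was called. It was Bsn, which encodes Bassoon, a very large scaffold protein of the presynaptic active zone, with a change of 0.48 (adjusted p = 0.028).

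RiboTag IP compared the reads of each gene in polysomes pulled down through the tag with those in the whole tissue. On CDS counts 7 of 8 members were lower in IP than in input and none was higher, where 39.0% of 12211 genes were called lower and 75.5% were called in either direction. Cacna1e was the lowest, with 119 and 103 CPM in input and 14.8 and 14.4 CPM in IP of mice E and F. Its change was −2.49 on the log2 scale (SE 0.14, 5.62-fold lower, adjusted p = 2.6e-06). Cacna1d followed with 90.1 and 86.6 CPM in input and 23.2 and 22.5 CPM in IP (−1.52, SE 0.13), and input and IP did not overlap. Cacna1h had 210 and 132 CPM in input, the widest gap between mice of any member, and 55.3 and 38.5 CPM in IP (−1.43, SE 0.24). Cacna1c (−1.35), Cacna1b (−1.16), Cacna1i (−1.13) and Cacna1a (−0.74, SE 0.12) completed the group. Cacna1g was the member with the least difference, at 246 and 201 CPM in input and 137 and 135 CPM in IP. It did not pass the unblocked test (−0.28, SE 0.13, adjusted p = 0.075) and passed it with the mouse as a block (−0.27, adjusted p = 0.010). After division by size factors the log2 ratios of Cacna1g in mice E and F were −0.30 and 0.01. On that scale the median of genes with at least 37 counts in each library was 0.34 and 0.32. Cacna1g thus lay below the median gene in both mice. The median of the 8 was −1.25 against −0.07 over all genes tested.

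These values depended on which part of the mRNA was counted. With exon counts Cacna1i was not called (−0.13, SE 0.099, adjusted p = 0.27), while Cacna1g was lower (−0.60, adjusted p = 0.0077) and the number of members called lower was again 7, where 35.7% of 13254 genes were. Cacna1e remained lowest at −1.80, followed by Cacna1b at −1.57. On exon counts outside the CDS, an alternative chosen after these differences were seen, 4 of 7 tested members were called, where 59.6% of 9947 genes were. Cacna1a was higher in IP (0.49, SE 0.15, adjusted p = 0.018) and Cacna1i had 0.28 (adjusted p = 0.051). Cacna1e was lower there too (−2.01, adjusted p = 1.2e-05), as were Cacna1c (−0.80) and Cacna1d (−0.63). Cacna1h (−0.40) and Cacna1g (−0.12) did not pass, and Cacna1b had too few counts outside its CDS to be tested.

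The ratio of exon to CDS counts is another form of these differences, since exon counts include the CDS counts. For Cacna1e it was 3.29 and 3.83 in input and 8.10 and 7.67 in IP, and for Cacna1i it was 1.64 and 1.81 in input and 4.22 and 5.36 in IP. The IP ratio was thus 2.46 and 2.00 times the input ratio for Cacna1e, and 2.57 and 2.97 times for Cacna1i. For the median gene it was 1.19 and 1.25 times. Cacna1b hardly shifted, with 1.02 and 1.01 in input and 1.05 in each IP. Cacna1c, Cacna1d and Cacna1e were called lower in all 3 ways of counting, whereas Cacna1a and Cacna1i changed direction on counts outside the CDS. The part of cell type in the lower IP values was not tested. On CDS counts, where 39.0% of all genes were called lower, 7 of 7 markers of inhibitory neurons were lower in IP. So were 7 of 7 astrocyte, 8 of 8 oligodendrocyte, 5 of 5 endothelial and 5 of 6 microglial markers. Of 7 excitatory markers 6 were higher on CDS counts, where 36.5% of all genes were, and 7 on exon counts.

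**Figure D4:**
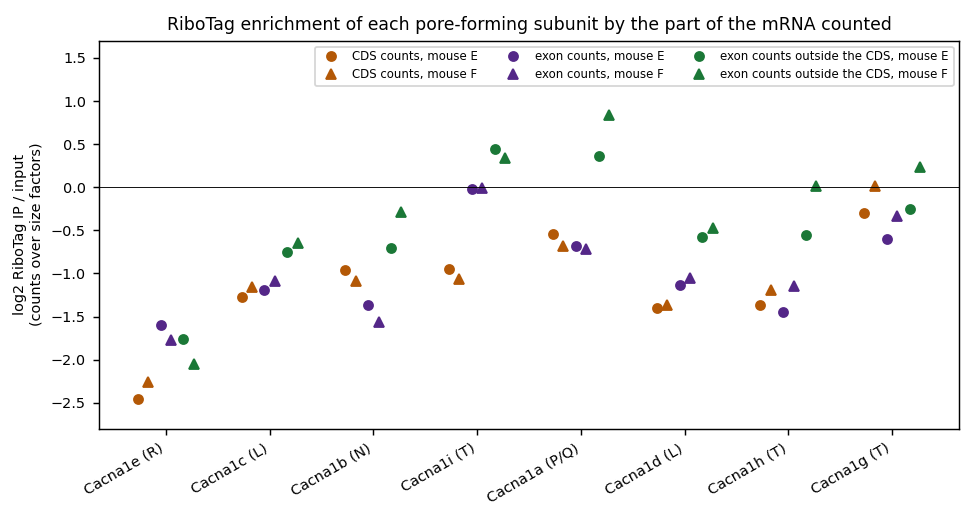
Log2 ratio of RiboTag IP to input (vertical axis, counts divided by size factors) for the 8 subunits in mice E (circles) and F (triangles), from CDS counts, all exon counts and exon counts outside the CDS. Cacna1e lies lowest on CDS counts (−2.46 and −2.25), and the counts outside the CDS lie above 0 in both mice for Cacna1a and Cacna1i.

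Auxiliary subunits went in different directions in IP, where 36.5% of all genes were called higher. Cacnb1 (0.93, SE 0.13) and Cacnb3 (0.90, SE 0.13) were higher, and Cacna2d3 was higher by less (0.40, adjusted p = 0.019). Cacnb4 (−2.47), Cacnb2 (−0.72), Cacna2d1 (−2.55) and Cacna2d2 (−2.72) were lower. With exon counts Cacnb2, Cacnb4 (−0.04), Cacna2d1 and Cacna2d3 (0.06) were not called, leaving 2 of 4 β genes higher and 1 of 4 α2δ genes lower. With the mouse as a block 2 α2δ genes were lower on exon counts, Cacna2d1 being the one added (−0.23, adjusted p = 0.0016). All 6 channel relatives were lower on CDS counts, from −2.76 (Scn3a) to −1.02 (Scn8a), and 5 of 6 on exon counts. Of 20 tested partner genes 6 were higher (7 with the block) and 9 lower, between Bsn (−2.82) and Calm2 (1.79).

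Over the 12 libraries, the log2 CPM of the members followed different genes. The measure was Pearson's r over 12014 genes. It is set mostly by the differences between footprint, RNA and IP libraries, which the points share. Cacna1e was most like Map1b (r = 0.997) and D10Bwg1379e (0.996), and Cacna1g most like Safb2 (0.997) and Anks3 (0.997). Cacna1a was nearest to Lphn1 and Madd, Cacna1b to Baz1b and Ids, and Cacna1c to Prr14l and Wdfy3. Cacna1d was nearest to Ccnt2 and Lphn2, Cacna1h to Ccdc88c, and Cacna1i to Prex1 and Pitpnm3. Among the members themselves, r was 0.85 between Cacna1e and Cacna1c, and −0.71 between Cacna1e and Cacna1g.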

How the data were processed

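The authors deposited whole-number read counts per gene, without normalization, on CDS for 12 libraries and on exons for the 8 RNA libraries. Footprint reads were clipped and filtered against rRNA (Bowtie2) by the authors before alignment by TopHat2 and counting by HTSeq, and the submitters' processing notes name mm10. The tables give gene symbols, and 27 symbols had been turned into dates. Positions were taken by symbol from RefSeq GRCm38.p6.

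TE and the per-mouse IP ratio were computed from counts divided by DESeq2 size factors, on genes with at least 37 counts in each library of the mouse. CPM are relative to all CDS counts. Tests used edgeR 4.0.16 (TMM, quasi-likelihood, Benjamini-Hochberg adjustment over all genes tested, threshold 0.05) in R 4.3.3, after a filter that kept genes averaging 37 counts or more over the libraries fitted. The TE change was tested as an interaction. DESeq2 1.42.0 was an alternative, as were its normalization in edgeR, no count filter, a fold limit of 2, the mouse as a block, exon counts and leaving out each mouse. Counts outside the CDS are exon minus CDS counts, and 2956 negative values were set to 0. The tests were checked on simulated data.

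Libraries with the same mouse letter come from the same animal according to the labels. Across genes, the difference between mice correlated at 0.243 between footprints and RNA of mice A and B, 0.197 for mice C and D and 0.476 between IP and input of mice E and F. Libraries of a group differed beyond counting error (chi-square per degree of freedom 2.61 to 9.53). Levels were not given per coding length, since no coding lengths were at hand.

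The members, gene lists and tests were chosen with earlier results of these data known. All members are named, and of the other lists the auxiliary subunits, the highest and lowest gene and, in counts of 1, the gene called. A few other genes under these rules are not reported here.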

Additional observations from a re-analysis of the deposited data

How the results depend on the processing

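The direction and call of Cacna1e, Cacna1g, Cacna1h, Cacna1d, Cacna1a and Cacna1i in baseline TE were kept with DESeq2, its normalization, no count filter, the mouse as a block and without each mouse. A fold limit of 2 left 4 members and 3638 genes. For the TE change, members called fell from 1 to 0 with no count filter, with the fold limit, and without each mouse (0 to 0 members), and all genes called were 36 with the fold limit and 56 to 77 without each mouse, the lowest without mouse A. With the mouse as a replicate block, Cacna1e kept its call (0.50), 147 genes were called in place of 102, and in IP the block added Cacna1g (−0.27) and changed no other member's call.

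For RNA, genes called were 28 with DESeq2, 78 with no count filter, 4 with the fold limit and 13 to 36 without each mouse (33 without mouse A and 36 without mouse D). For footprints they were 264 with no count filter, 36 with the fold limit and 64 to 837 without each mouse (64 without mouse B, 265 without mouse D and 837 without mouse C). The estimate near 0 of Cacna1a in RNA was 0.0138 with exon counts and −0.0415 to 0.0159 without each mouse, that of Cacna1g −0.223 to 0.00392, and that of Cacna1d in footprints −0.15 to 0.14, and none was called. In IP, counts outside the CDS called 4 members and 5927 genes, and turned Cacna1a (0.49) and Cacna1i (0.28) upward, and the fold limit left 5680 genes. The summed log2 ratio of the members with size factors in place of totals was −0.27 (main −0.37) for footprints over RNA and −0.84 (main −1.41) for IP over input. For these changes the cause was not tested. Without mouse E or F the IP value has no test. Footprint depth was lowest for Cacna1d, with 117 to 271 counts in the 4 libraries.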

Other observations

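Cacna1f and Cacna1s, the members of the Cacna1 family that were too sparse for testing, had few counts in every library. Cacna1f had 0.43 and 1.01 CPM in the vehicle RNA libraries and 3.24 and 5.93 CPM in the vehicle footprint libraries, and 3 counts in each IP library. Its exon counts outside the CDS were 0 or 1 in input and 0 in IP. Cacna1s had 3.94 and 2.43 CPM in vehicle RNA and 3.24 and 3.74 CPM in vehicle footprints. No ratio is given for these genes, since their counts were too few for the tests.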
